A study of Homo sapiens with 6 samples.

Results

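The 39 genes described here encode the proteins that copy DNA in S phase, with the enzymes that supply its building blocks and a pair of E2F transcription factors. They were taken by symbol from a fixed list, and all 39 were found among the 29710 genes with counted reads. The list holds 4 origin licensing genes, the 6 helicase subunit genes MCM2 to MCM7, 6 helicase activation genes, 5 polymerase and primase genes, the sliding clamp with its 5 loader subunits, 5 genes for flap processing, ligation and single-strand binding, 4 genes of deoxynucleotide supply, and E2F1, E2F2 and UHRF1. The rule uses symbols alone, with no threshold on a measured value, though the list was chosen with earlier results of these data known.

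RNA was sequenced from MDA-MB-231, a human triple-negative breast cancer cell line, by strand-specific paired-end sequencing. The treated group carried SRPK2-FLAG, an overexpressed tagged form of SRPK2, a kinase that phosphorylates splicing factors rich in serine and arginine. The control group carried the empty vector, and both groups shared the same parental line. Each group had 3 replicates, described by the submitters as biological, and whether the line was cloned or pooled after receiving the construct is not given in the sources used here. No dose, time or cell cycle stage is given in those sources either, and a count of RNA from whole cultures cannot tell fewer cells in S phase from less RNA per cell.

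In the cell cycle, origins are licensed in G1 when the origin recognition complex, CDC6 and CDT1 load the MCM2 to MCM7 ring onto DNA. CDC45 and the GINS complex then activate the ring as a helicase, and polymerases, a sliding clamp and a ligase complete the new strands. Many of these genes are known targets of E2F factors, which are held in check by RB proteins until cells commit to S phase, so their mRNA is widely used as a sign of proliferation.

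Control libraries held 33590410 to 36225361 reads assigned to genes and SRPK2 libraries 31140537 to 36908878. SRPK2 itself was at 37.8, 36.7 and 41.1 CPM (read counts scaled to library size with TMM factors) in the controls and at 213, 248 and 294 CPM in the SRPK2 libraries. Its level was 6.52-fold higher, with a log2 fold change of 2.71 (SE 0.10) in edgeR's quasi-likelihood test. Markers of the line were abundant, with VIM at 626 FPKM (the deposited values, scaled for gene-model length and depth) and CD44 at 95.5 FPKM in the controls, while of 5 luminal markers ESR1 had no FPKM value, PGR and FOXA1 were at 0.01 FPKM or less, and ERBB2 and GATA3 were at 4.09 and 3.93 FPKM. The summed level of 5 fibroblast markers was 1.28 to 1.39 FPKM in the controls and 1.80 to 1.90 FPKM in the SRPK2 libraries, and its part in the results below was not tested. Over 16515 tested genes, 63 were higher and 12 lower with SRPK2 at an adjusted p under 0.05.

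Promoter sequences come first, since the group is named in part for targets of E2F factors. RefSeq promoters (GRCh38.p14) were matched for 34 of the 39 genes, and MCM4, MCM5, GINS4, RPA2 and RPA3 were not matched. For each of the 34 genes a single start was used. The 250 bases before each start were searched on both strands for E2F-type letters (TTCCCGC or the variants TTGGCGC or else TTCGCGC or also TTGCCGC), for CCAAT and for TTTGAA. Matches can overlap, because TTGGCGC shares its first letters with CCAAT read on the other strand. One window of 30 bases is shown for 1 gene of each role, read along the gene's own strand with the E2F-type match in capitals. On the other strand, TTCCCGC reads as GCGGGAA and the variant TTGGCGC as GCGCCAA, while that of TTGCCGC is GCGGCAA.
CDT1 (chr16:88803748-88803777, plus strand): gcgcccGCGGGAAatttgGCGGGAAccgcg
MCM3 (chr6:52284748-52284777, minus strand): taacctttggtgGCGGGAAgagttcggaag
GINS2 (chr16:85688968-85688997, minus strand): gctctcgccgtgGCGGGAAaacggcggccg
POLE (chr12:132687343-132687372, minus strand): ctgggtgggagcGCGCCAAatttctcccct
PCNA (chr20:5126664-5126693, minus strand): gcagcgtcagggGCGGGAAaaggcgtgcgt
LIG1 (chr19:48170440-48170469, minus strand): acttcaccccttTTCCCGCcctcctcccat
TYMS (chr18:657602-657631, plus strand): cgcgggacggccGCGGGAAaaggcgcgcgg
E2F1 (chr20:33686394-33686423, minus strand): ctttcGCGGCAAaaaggatTTGGCGCgtaa

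The CDT1 and E2F1 windows each hold 2 matches, and these windows end 12 and 9 bases before the start used. Against GENCODE gene spans, the windows of CDT1, MCM3, GINS2 and LIG1 lay inside the gene, and that of PCNA before it. Those of TYMS (almost wholly inside), POLE and E2F1 crossed the edge. Bases just after the start used were absent from the transcript used for E2F1, MCM10, GINS1, FEN1, RPA1 and TK1, and partly absent for others. Other starts were not searched, so the counts below hold for the starts used. E2F-type letters were present in 19 of the 34 matched promoters (55.9%), against 1931 of 11193 promoters of tested genes (17.2%) and 3822 of 35116 promoters in the table (10.9%). At least 2 matches were present in 9 of the 34 (26.5%), against 2.42% of tested genes' promoters. E2F-type matches that overlap on opposite strands were counted separately, so that 2 matches are not always 2 sites. Those of ORC1 overlap, beginning 22 and 19 bases before the start used, and those of MCM6 overlap in pairs. CCAAT, the letters bound by NF-Y, was present in 21 of 34 (61.8%), against 35.0% of tested genes' promoters and 32.01% of the table. TTTGAA, the core of the cell cycle homology element typical of mitotic genes, was present in 1 of 34 (2.94%), against 8.47% of tested genes' promoters and 13.3% of the table. Among 27 promoters of mitotic spindle and checkpoint genes TTTGAA was the more frequent of the pair, with TTTGAA in 15 (55.6%) and E2F-type letters in 5 (18.5%), while CCAAT was in 21 (77.8%). E2F-type letters were in 8 of 22 promoters of E2F, RB and DREAM regulators (36.4%, with at least 2 matches in 22.7%) and in 7 of 37 promoters of further replication genes (18.9%). These are counts of letters, and the data hold no measure of factor binding.

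Replication genes were well expressed in both groups. All 39 had enough reads to be tested. In the controls the gene means ran from 0.803 FPKM for E2F2 to 150.1 FPKM for PCNA, the sliding clamp, a range of 187-fold. TYMS, which makes thymidylate, followed at 102 FPKM and FEN1, the flap endonuclease, at 84.4 FPKM. Together the 39 genes took 0.378%, 0.380% and 0.386% of the reads in the 3 control libraries and 0.367%, 0.376% and 0.382% in the 3 SRPK2 libraries. The 2 sets of shares overlapped. SRPK2 replicate 1 had the lowest share and control replicate 3 the highest.

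**Figure D1:**
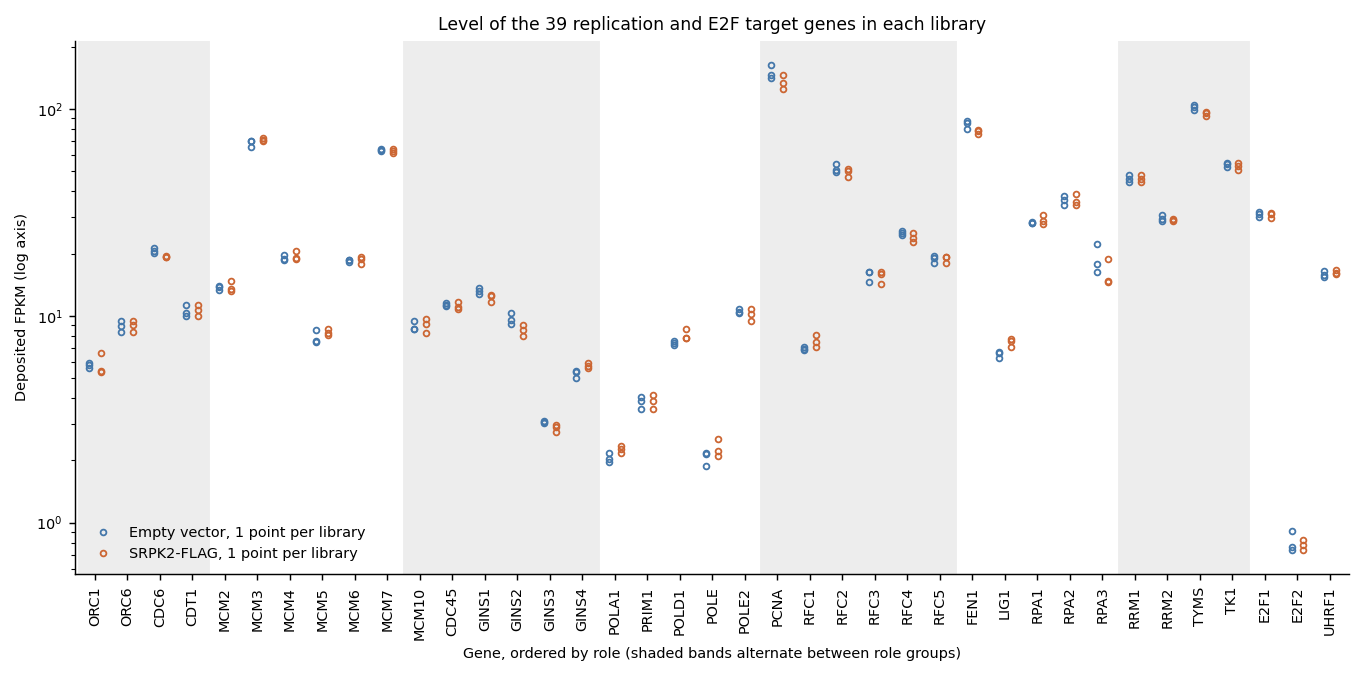
Deposited FPKM of each of the 39 genes (log axis), ordered by role, with 1 point per library for the empty vector (blue, 3 libraries) and SRPK2-FLAG (orange, 3 libraries). Shaded bands alternate between roles, and the 2 groups of points lie close together at every level, from E2F2 near 0.8 FPKM to PCNA at 150.1 FPKM in the controls.

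None of the 39 genes passed the test between SRPK2 and empty vector with the group as the only term. At an adjusted p under 0.05 (edgeR quasi-likelihood, Benjamini-Hochberg over all tested genes) 0 of 39 were called, against 0.454% of all tested genes, and DESeq2 and limma-voom also called 0. The smallest adjusted p among them was 0.196. At an unadjusted p under 0.05 there were 8 of 39 (20.5%), against 17.2% of all tested genes. One of the 8, LIG1 (2.56% of the 39), had a positive fitted change, against 9.06% of all tested genes. The other 7 (17.9%), CDC6, GINS1, GINS2, PCNA, FEN1, RPA3 and TYMS, had negative ones, against 8.1% of all tested genes. In this fit, with TMM scaling, the share in both directions together was close to the background, and the split between directions was not. At that threshold limma-voom gave 7 of the 39, against 17.5% of all tested genes. With library size alone edgeR gave 4 of the 39, against 17.4%. With the replicate number as a block, which the labels do not call a batch, edgeR called 12 of the 39 at an adjusted p under 0.05, against 23.6% of all tested genes.

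Fitted changes were small. The log2 fold changes (SRPK2 minus empty vector) ran from -0.26 for RPA3 to 0.16 for LIG1, with a median of -0.04, against a median of 0.00 over all tested genes. The fitted value was negative for 30 genes and positive for 9 with TMM scaling, but negative for 20 and positive for 19 with library size alone and in the fits to FPKM. Over all tested genes 8064 values were negative and 8451 positive. The median of all genes moved with the scaling as well, to 0.04 with library size alone, where that of the 39 was -0.0010. With that scaling the median turned positive for the licensing genes (0.01) and for MCM2 to MCM7 (0.03), and it kept its sign in the other 6 roles. The 95% interval of the fold change lay within 1.1-fold in both directions for 6 of the 39 genes, within 1.2-fold for 32, within 1.25-fold for 36 and within 1.5-fold for all 39. The genes whose intervals passed 1.25-fold were GINS2, PCNA and RPA3, all toward lower levels. These intervals are not adjusted for the number of genes.

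**Figure D2:**
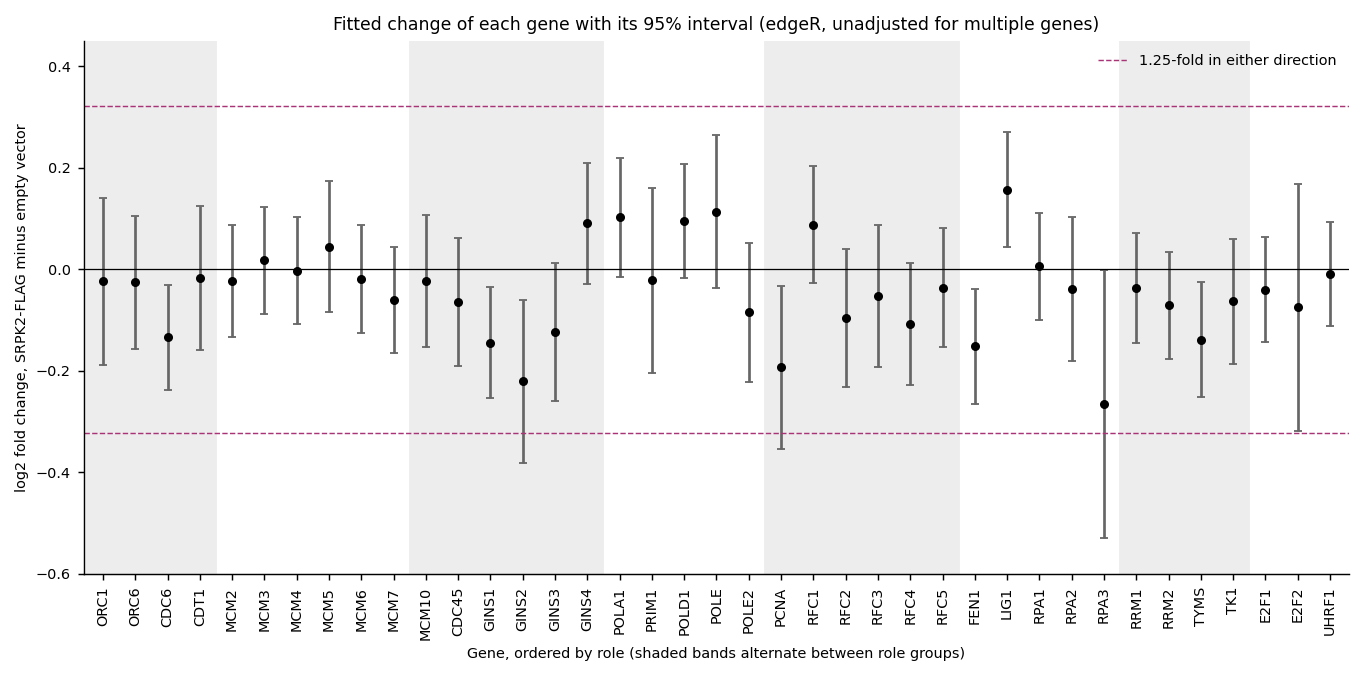
Fitted log2 fold change of each gene, SRPK2-FLAG minus empty vector, with its 95% interval from edgeR (bars, 3 libraries a group, not adjusted for the number of genes), ordered by role. The dashed lines mark 1.25-fold in either direction, which the intervals of GINS2, PCNA and RPA3 cross on the lower side.

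In fits with the group as the only term, the count of 0 moved with 1 library and with the filter on low counts. Without SRPK2 replicate 2, edgeR called 3 of the 39, all lower with SRPK2, against 8.37% of all genes then tested. They were RPA3 (log2 fold change -0.41, Benjamini-Hochberg adjusted p = 0.0278), PCNA (-0.27, 0.0321) and GINS2 (-0.28, 0.0388). With no filter on low counts, edgeR called the same 3 genes lower, against 3.36% of all 29710 genes. Their adjusted p-values were then 0.00301 for RPA3, 0.0391 for PCNA and 0.0390 for GINS2. No other single library, when left out, brought any of the 39 past the threshold.

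For 12 of the 39 genes (30.8%) every CPM value of 1 group lay beyond every value of the other, against 20.1% of all tested genes. Of these, 4 were higher in every SRPK2 library (GINS4, POLA1, POLD1 and LIG1), against 11.5% of all tested genes, and 8 were lower (CDC6, MCM7, GINS1, GINS2, GINS3, FEN1, RRM2 and TYMS), against 8.69%. For POLA1, the catalytic subunit of the primase-polymerase, the groups met at 36.8 CPM at the precision printed here. The set depended on the scaling. With the deposited FPKM values the groups overlapped for MCM7 and RRM2 and met at 2.16 FPKM for POLA1. RFC1 stood apart on that scale, with a highest control of 7.03 FPKM and a lowest SRPK2 library of 7.08 FPKM.

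Origin licensing genes had a median log2 fold change of -0.03, and all 4 values were negative with TMM scaling, while 3 were positive with library size alone. CDC6, the ATPase that helps load the MCM ring, was at 123, 121 and 124 CPM in the controls and at 112, 114 and 109 CPM in the SRPK2 libraries. All 3 SRPK2 libraries lay below all controls, and the fitted value was -0.13 (SE 0.05, edgeR Benjamini-Hochberg adjusted p = 0.211). CDT1, the partner of CDC6 in loading, was at 34.7, 31.2 and 31.1 CPM in the controls and at 34.3, 30.5 and 31.2 CPM with SRPK2. The groups overlapped almost fully, and replicate 1 was the highest in each. Its log2 fold change was -0.02 (SE 0.07, edgeR adjusted p = 0.907). ORC1 and ORC6, subunits of the origin recognition complex, both had values between -0.03 and -0.02.

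For the MCM2 to MCM7 helicase genes the median log2 fold change was -0.01, with 2 positive and 4 negative values, or 5 positive and 1 negative with library size alone. MCM7 was at 315, 313 and 305 CPM in the controls and at 295, 302 and 297 CPM with SRPK2. The groups did not overlap, but came within a few CPM of each other. The fit gave -0.06 (SE 0.05, edgeR adjusted p = 0.528). MCM3 was at 285, 271 and 280 CPM in the controls and at 284, 280 and 282 CPM with SRPK2. The SRPK2 values lay inside the range of the controls, and the 95% interval of the log2 fold change was -0.09 to 0.12. MCM5 was at 69.3, 61.5 and 60.3 CPM in the controls and at 65.8, 64.9 and 66.4 CPM with SRPK2, again inside the control range. Its log2 fold change was 0.04 (SE 0.06, edgeR adjusted p = 0.718).

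Although the 6 MCM proteins form a ring with 1 copy of each, their mRNA levels differed widely within the controls. On the FPKM scale MCM3 (68.5 ± 2.43, SD, n = 3) and MCM7 (63.5 ± 0.55) were highest. MCM4 (19.1 ± 0.50), MCM6 (18.4 ± 0.19) and MCM2 (13.7 ± 0.29) came next, and MCM5 was lowest at 7.86 ± 0.58. The neighbours MCM4 and MCM6 were close but did not overlap, with 18.83, 18.70 and 19.63 FPKM for MCM4 and 18.58, 18.22 and 18.52 FPKM for MCM6. The gene-model length behind the FPKM of MCM5 was 8018 bases, against 3534 bases for its principal transcript in GENCODE 29, so the gap depended on the length used. Per kilobase of principal transcript the order became MCM7 (105 CPM per kilobase), MCM3 (86.9), MCM4 (35.4), MCM6 (22.8), MCM2 (19.8) and MCM5 (18.03). The ratio of the highest to the lowest was 8.72 on the FPKM scale and 5.83 per kilobase of principal transcript.

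Among helicase activation genes the log2 fold changes were negative for 5 of 6, with a median of -0.09. The GINS complex, which joins CDC45 and the MCM ring, has 4 subunits, and these did not all lean the same way. GINS2 was at 34.6, 37.8 and 32.2 CPM in the controls and at 30.3, 32.1 and 27.3 CPM with SRPK2. The groups stood apart by about 0.1 CPM, and replicate 2 was the highest in each. Its log2 fold change was -0.22 (SE 0.07, edgeR adjusted p = 0.196, 95% interval -0.38 to -0.06). GINS1 was at 61.2, 59.6 and 61.6 CPM in the controls and at 56.7, 53.2 and 55.1 CPM with SRPK2. All SRPK2 libraries were lower, and the fit gave -0.14 (SE 0.05, edgeR adjusted p = 0.203). GINS3 was also lower in all SRPK2 libraries, with a log2 fold change of -0.12. GINS4 was at 30.6, 33.4 and 32.03 CPM in the controls and at 34.2, 33.7 and 34.3 CPM with SRPK2. This subunit was higher in all SRPK2 libraries, and its fit gave 0.09 on the log2 scale (SE 0.05, edgeR adjusted p = 0.399). CDC45 and MCM10, a further initiation factor, had values of -0.06 and -0.02.

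Polymerase and primase genes were the role with the highest median, 0.09, and 3 of 5 values were positive. The 3 were the catalytic subunits POLA1 (0.10), POLD1 (0.09) and POLE (0.11). POLE, which makes the leading strand, was at 40.8, 35.5 and 39.4 CPM in the controls and at 40.9, 38.97 and 45.3 CPM with SRPK2. The groups overlapped, and SRPK2 replicate 3 was the highest library. The fit gave an SE of 0.07 and an edgeR adjusted p of 0.404. POLE2, the second subunit of the same polymerase, was at 34.4, 36.1 and 33.5 CPM in the controls and at 30.8, 35.3 and 31.96 CPM with SRPK2. These groups overlapped too, and the log2 fold change had the opposite sign, -0.08 (SE 0.06, edgeR adjusted p = 0.495). PRIM1, the small primase subunit, had a log2 fold change of -0.02.

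Among the sliding clamp and its loader, 5 of 6 values were negative, with a median of -0.07. PCNA, the clamp that tethers polymerases to DNA, was at 223, 260 and 223 CPM in the controls and at 192, 226 and 199 CPM with SRPK2. The groups overlapped, since SRPK2 replicate 2 lay above 2 of the controls. The fit gave -0.19 (SE 0.07, edgeR adjusted p = 0.228, 95% interval -0.35 to -0.03). RFC1, the large loader subunit, was at 51.4, 52.4 and 51.7 CPM in the controls and at 52.2, 55.3 and 57.7 CPM with SRPK2. SRPK2 replicate 1 lay inside the control range and the other two above it. Its fitted value of 0.09 (SE 0.05, edgeR adjusted p = 0.3998) was the only positive one of the 5 loader genes. The small subunits RFC2 to RFC5 had values between -0.11 and -0.04, and none stood apart between groups. RFC1 also had the lowest level of the loader genes in the controls, at 10.7 CPM per kilobase of principal transcript against 75.1 for RFC2, the highest.

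The 5 genes for flap processing, ligation and single-strand binding held both ends of the range, LIG1 at the top and RPA3 at the bottom. LIG1, the ligase that joins Okazaki fragments, was at 49.2, 46.5 and 47.8 CPM in the controls and at 54.3, 51.2 and 54.3 CPM with SRPK2. All 3 SRPK2 libraries lay above all controls, and the fit gave 0.16 (SE 0.05, edgeR adjusted p = 0.196, 95% interval 0.04 to 0.27). FEN1, which trims the flaps before ligation, was at 210, 200 and 210 CPM in the controls and at 188, 193 and 177 CPM with SRPK2. All SRPK2 libraries were lower here. The log2 fold change was -0.15 (SE 0.05, edgeR adjusted p = 0.2001, 95% interval -0.27 to -0.04).

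RPA coats single-stranded DNA as a trimer of RPA1, RPA2 and RPA3. RPA3, the smallest subunit, was at 64.3, 81.4 and 57.9 CPM in the controls and at 52.2, 67.1 and 49.99 CPM with SRPK2. The groups overlapped, and replicate 2 was the highest library of each. The log2 fold change of -0.26 was the lowest of the 39 and had the widest interval, -0.53 to just below 0 (SE 0.12, edgeR adjusted p = 0.290). RPA1 and RPA2 had log2 fold changes of 0.01 and -0.04. The 3 subunits were closer in level than those of the MCM ring, with a highest-to-lowest ratio of 1.36 per kilobase of principal transcript.

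**Figure D3:**
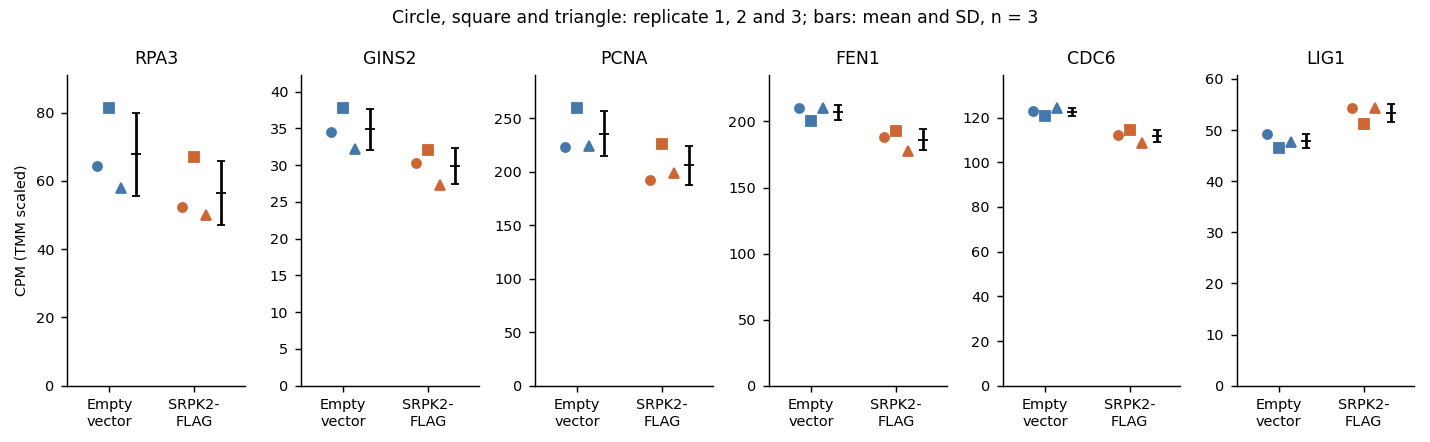
CPM (TMM scaled) of RPA3, GINS2, PCNA, FEN1, CDC6 and LIG1 in each library, with circle, square and triangle for replicates 1, 2 and 3 and bars for the mean and SD (n = 3). Replicate 2 is the highest of both groups for RPA3, GINS2 and PCNA, while the groups stand apart for GINS2, FEN1, CDC6 and LIG1.

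Deoxynucleotide supply genes had a median of -0.07, and all 4 values were negative. TYMS was at 267, 288 and 270 CPM in the controls and at 245, 259 and 247 CPM with SRPK2. All SRPK2 libraries lay below all controls. The log2 fold change was -0.14 (SE 0.05, edgeR adjusted p = 0.227, 95% interval -0.25 to -0.02). RRM1, the large subunit of ribonucleotide reductase, was at 210, 219 and 222 CPM in the controls and at 205, 214 and 215 CPM with SRPK2. The groups overlapped, and the fit gave -0.04 (SE 0.05, edgeR adjusted p = 0.724). RRM2, the small subunit of that enzyme, was at 296, 306 and 307 CPM in the controls and at 291, 290 and 285 CPM with SRPK2. It stood apart between groups, with a log2 fold change of -0.07 (edgeR adjusted p = 0.454). TK1, the salvage kinase for thymidine, had a value of -0.06.

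Neither E2F factor stood apart between groups. E2F1, an activator of S phase genes and itself an E2F target, was at 93.4, 91.5 and 93.3 CPM in the controls and at 88.2, 92.2 and 89.98 CPM with SRPK2. SRPK2 replicate 2 lay within the control range and the other two just below it. The log2 fold change was -0.04 (SE 0.05, edgeR adjusted p = 0.680, 95% interval -0.14 to 0.06). E2F2, a second activator, was at 5.58, 4.59 and 4.54 CPM in the controls and at 4.69, 4.49 and 4.77 CPM with SRPK2. Control replicate 1 was the highest library, and the remaining 5 lay close together. Its 95% interval of -0.32 to 0.17 was among the widest of the 39, and its level was the lowest. UHRF1, which guides DNA methylation onto new strands, was at 89.1, 92.3 and 92.5 CPM in the controls and at 90.3, 90.9 and 91.0 CPM with SRPK2. All SRPK2 values fell inside the control range (log2 fold change -0.01, SE 0.05, edgeR adjusted p = 0.936).

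Libraries differed in how the 39 genes deviated from their means over all 6. The median deviation on the log2 scale was 0.03, 0.03 and -0.00 in the controls and -0.05, 0.01 and -0.02 in SRPK2 replicates 1, 2 and 3. SRPK2 replicate 2 lay above control replicate 3, so the groups overlapped. The clamp and its loader had the widest range between control libraries of the 8 roles, with median deviations of -0.01, 0.11 and 0.02.

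**Figure D4:**
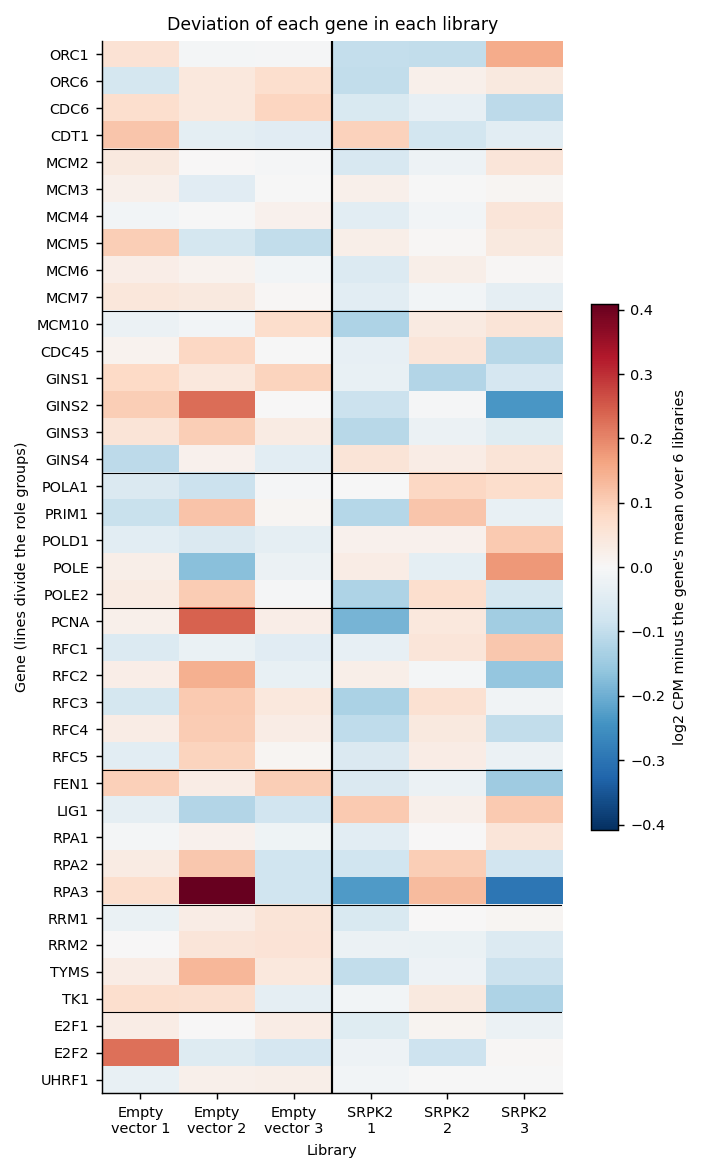
Log2 CPM of each gene in each library minus that gene's mean over the 6 libraries (red higher, blue lower), with the empty vector on the left of the vertical line, SRPK2-FLAG on the right and horizontal lines between roles. RPA3, PCNA and GINS2 are deepest red in control replicate 2, and the catalytic polymerase genes are red mainly on the SRPK2 side.

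Longer genes tended to have higher fitted changes. Gene-model length was recovered from the counts and FPKM values. The 9 genes with positive log2 fold changes had a median length of 7261 bases, against 3559 bases for the 30 negative ones. Across the 39 genes Pearson's r between log2 length and log2 fold change was 0.60 and Spearman's rho 0.57. Across 13397 tested genes with a length r was 0.27 and rho 0.35. After each library was corrected for gene length, the values over the 39 genes were 0.22 and 0.17. These are relations across genes of the same 6 libraries, and genes are not independent replicates. With the correction the log2 fold change of POLE was 0.03 in place of 0.11. That of PCNA was -0.13 in place of -0.19, and that of LIG1 was 0.12 in place of 0.16. Others moved away from 0, with RRM2 at -0.127 in place of -0.071, CDC6 at -0.153 in place of -0.134 and GINS3 at -0.140 in place of -0.124. After the correction 0 of the 39 were called.

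**Figure D5:**
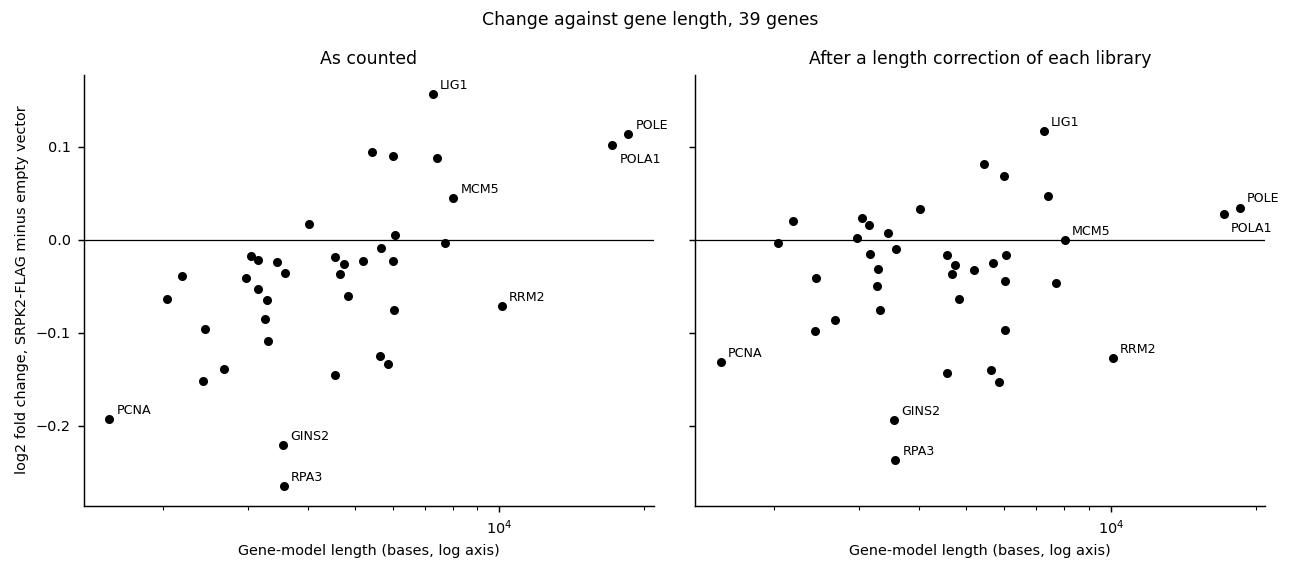
Log2 fold change (SRPK2-FLAG minus empty vector) against gene-model length in bases (log axis), 1 point per gene for the 39 genes, as counted on the left and after a length correction of each library on the right. Pearson's r over the 39 genes was 0.60 on the left and 0.22 on the right. POLE and POLA1, the longest genes, lie nearer to 0 on the right, while RRM2 lies further from it.

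The spans of several members, introns included, overlap those of other genes, and the strand setting of the counter is not given in the sources used here. In GENCODE 29, UMAD1 overlaps RPA3 on the opposite strand over 77897 bases, ENOSF1 overlaps TYMS on the opposite strand over 3255 bases, and FADS2 overlaps FEN1 on the same strand over 4265 bases. The log2 fold changes of these neighbours were -0.03 for UMAD1, -0.02 for ENOSF1 and 0.19 for FADS2. RPA3, TYMS and FEN1 themselves had -0.26, -0.14 and -0.15. Also on the opposite strand, TYMSOS overlaps TYMS over 737 bases (log2 fold change -0.34) and TMEM258 overlaps FEN1 over 166 bases (-0.21). PRIM1 shares its strand with AC117378.1 over 9940 bases (2517 reads for PRIM1 and 2206 for its neighbour, summed over libraries), and RFC3 with AL161891.1 over 4636 bases (10285 and 1872 reads). PRIM1 also shares 33 bases on its strand with NACA (135962 reads, log2 fold change -0.22). Further shorter or less expressed overlaps were found for these and other members. These lengths are of whole gene spans, and the principal transcript of RPA3 has 2020 bases. Overlap between exons was not measured, so the values of all of these genes are uncertain to an extent not known here.

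Other genes of the same processes were also without calls. Of 45 tested further replication genes, 0 passed the edgeR test, against 0.454% of all tested genes. An unadjusted p under 0.05 was found for 11 (24.4%), against 17.2% of all tested genes, and the median log2 fold change was -0.00. POLE4, a small subunit of the same polymerase as POLE, had the largest value by size, -0.26 (SE 0.11, edgeR adjusted p = 0.262). Of 25 tested E2F, RB and DREAM complex regulators, 0 passed and 2 (8%) had an unadjusted p under 0.05. RBL2, the RB-family protein p130 of the DREAM complex, had a value of 0.21 (SE 0.08, edgeR adjusted p = 0.229). Of 9 cyclins 0 passed, with CCND2 at 3.24 CPM in the controls and 2.39 CPM with SRPK2 (log2 fold change -0.44, SE 0.16, edgeR adjusted p = 0.218). Among 32 tested mitotic spindle and checkpoint genes 0 passed, and ESPL1, the separase that cuts cohesin, had the largest value, 0.25 (SE 0.06, edgeR adjusted p = 0.107). For 14 replication stress and checkpoint genes the count was also 0, and HUS1, a subunit of the checkpoint clamp, had a value of -0.14 (edgeR adjusted p = 0.282). The numbers at an unadjusted p under 0.05 were 1 cyclin (11.1%), 6 mitotic genes (18.75%) and 1 stress gene (7.14%). Over all tested genes that share was 17.2%.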

How the data were processed

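The authors deposited whole-number counts per gene, not normalized, and FPKM values rounded to 2 decimals. The submitters' processing notes name bcl2fastq, FastQC, HISAT2 and GRCh38. For the counting program, its setting for strand and the gene annotation, no name or version is given in the sources used here. Groups were read from the sample titles. The test was edgeR 4.0.16 under R 4.3.3, run on counts (TMM, filterByExpr, glmQLFit, glmQLFTest, two-sided, group as the only term), with Benjamini-Hochberg adjustment over 16515 tested genes and a threshold of 0.05. The biological coefficient of variation was 5.85%. Replicates of a group differed by 4.78 to 16.7 in chi-square per degree of freedom, so none was treated as a copy.

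The members and the gene lists were chosen with earlier results of these data known. Members given with full values were, in each role, those with the highest and lowest log2 fold change and the highest mean FPKM, and other members were given by a single value, range or count. RRM2 and the levels of the MCM subunits were added after their values were seen. Of each list of further genes, the one with the largest change by size was named. CHTF8 and NUSAP1, on the lists of further genes, had too few reads to be tested.

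Alternatives were other scalings and filters, DESeq2 1.42.0, limma 3.58.1 (voom, and log2 of FPKM plus 1 or 0.1), a block for the replicate number, gene length correction by loess (span 0.3) and leaving out each library. The scripts were tested on simulated counts. Coordinates and transcripts came from GENCODE 29. Figures were drawn with matplotlib 3.10.9 in Python 3.11.15.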

Additional observations from a re-analysis of the deposited data

How the results depend on the processing

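The SRPK2 log2 fold change ranged from 2.53 to 2.81 over 18 alternatives and passed the threshold in all of them. Of the 39 replication genes, 17 were negative and 6 positive in the reported fit and in every alternative in which they were tested, and 16 took both signs. E2F2 was not tested at a mean CPM of at least 5.

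The median over the 39 genes was -0.0010 with library size alone and -0.00076 with limma on log2(FPKM + 1), with and without a filter, and -0.00078 on log2(FPKM + 0.1). The median of all tested genes in these settings was 0.040, 0.025 (0.0063 unfiltered) and 0.033, against 0.0040 in the reported fit, where the 39 genes had -0.037. Leaving out each library gave -0.057 to -0.019. With no filter on low counts, 3 of the 39 and 997 of all genes were called. DESeq2 called 153 of all genes and limma on unfiltered log2(FPKM + 1) called 18. Leaving out each library gave 0 to 3 calls among the 39 and 27 to 1403 over all genes, the highest without SRPK2 replicate 2.

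CDT1 turned positive with library size alone (0.019), on log2(FPKM + 1) with or without a filter (0.018), on log2(FPKM + 0.1) (0.019) and with the length correction (0.023), and ran from -0.073 to 0.037 when libraries were left out. UHRF1 turned positive in the first of these settings too, at 0.027, 0.026 and 0.027, and ran from -0.026 to 0.00069 over libraries left out. The length correction gave -0.00066 for MCM5 and 0.0023 for E2F1. Over libraries left out, E2F2 ran from -0.13 to 0.029 and MCM3 from -0.0036 to 0.033. The cause of these turns was not tested, and each value lay within 1 SE of 0 in the reported fit.

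The labels number the replicates alike in both groups but do not say that a number marks a shared batch. Same-numbered libraries correlated at 0.084, 0.230 and 0.171 in their deviations from the group means, and each library correlated best with its own number, a hint from the data and not from the design. With the replicate number as a block, edgeR called 3899 of all genes (23.6%) and 12 of the 39, LIG1 and POLE higher and CDC6, GINS1, GINS2, PCNA, RFC2, RFC4, FEN1, RPA3, RRM2 and TYMS lower. With the block and the length correction it called 3242 of all genes (24.2%) and 9 of the 39, with CDT1 at 0.025 and E2F1 at 0.0025.

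Precision was limited by 3 libraries a group, and the SE also depended on the block for the replicate number. For RPA3 the SE was 0.122 in the reported fit and 0.034 with the block, and for PCNA 0.074 and 0.026. For E2F2 it changed little, from 0.112 to 0.106. RPA3 and PCNA were lower with SRPK2 at each replicate number, which the labels do not call a batch. E2F2 had the fewest reads of the 39 genes, at least 147 in a library, and every other member had at least 347.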
